A study of Homo sapiens with 6 samples.

Results

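Progenitor and globin-repressor transcription factors were examined in K562 cells, a human chronic myeloid leukemia line that carries the Bcr-Abl fusion and makes fetal and embryonic hemoglobin. The 10 members were MYB, RUNX1, CBFB, FLI1, ETV6, IKZF1, MEIS1, LYL1, BCL11A and ZBTB7A, chosen by gene symbol. The expression table lists genes by Entrez identifier, and 8 of the 10 members were found among its 12486 genes. RNA-seq compared 3 libraries from cells stably expressing a control shRNA against luciferase (sh-luc) with 3 from cells stably expressing an shRNA against the long noncoding RNA lncRNA-IUR1 (sh-IUR1), which the sample labels call lncRNA-up91. All 6 libraries came from the same cell line, no drug treatment is stated for them, and the methods give 1 shRNA sequence for the human transcript and describe independent groups of cells. The libraries of a group are numbered r1 and r2, and the remaining library carries no number. No value of lncRNA-IUR1 was analysed here, and the knockdown at its target was therefore not examined.

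These factors govern the passage from hematopoietic stem and progenitor cells to the erythroid and megakaryocytic lineages. MYB keeps progenitors cycling. RUNX1, bound to its non-DNA-binding partner CBFB, works with the ETS factors FLI1 and ETV6, the homeodomain protein MEIS1 and the basic helix-loop-helix protein LYL1 in stem cell and megakaryocyte programs, while IKZF1 acts mainly in lymphoid and erythroid development. BCL11A and ZBTB7A are the repressors that silence the fetal gamma-globin genes HBG1 and HBG2 in adult erythroid cells, and both recruit the NuRD corepressor complex.

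In the comparison of sh-IUR1 with sh-luc, 0 of the 8 measured members passed the test, and their libraries overlapped between the groups for every member. RUNX1 had the largest difference, with means of 13.9 ± 4.57 FPKM in sh-luc and 18.4 ± 3.01 FPKM in sh-IUR1 (SD, n = 3 each), a ratio of 1.32. In the unnumbered sh-luc library RUNX1 was at 8.86 FPKM, and without that library the ratio was 1.12. MYB, LYL1, CBFB and IKZF1 were expressed at levels between 25.3 and 108.6 FPKM in all 6 libraries. FPKM is a fragment count divided by transcript length and library size, so levels are set beside each other between genes. The annotation that gave the lengths is not known, and comparisons between genes depend on it.

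Differences were tested with limma on log2(FPKM + 1), with p-values adjusted by the Benjamini-Hochberg method over 12276 genes whose mean FPKM was 0.1 or more. Over all of these genes 0 were called at an adjusted p-value of 0.05 (0%), with adjusted p-values of 0.930 and above. At an unadjusted p-value of 0.05 limma gave 0 of 8 members, against 325 genes (2.65%) in the whole table. The groups did not overlap for 0 of 8 members, against 868 genes (7.07%). By sign, 5 members were higher and 3 lower in sh-IUR1, with a median log2 fold change of 0.05, against 0.02 over all genes tested. Of all genes tested, 58.0% were higher in sh-IUR1 by sign, the share beside which each count by sign stands.

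The unnumbered sh-luc library stood apart from the others. On the first principal component, with 59.3% of the variance, it was at -19.8 while the other 5 libraries were between -3.75 and 13.02. It held the lowest or highest value in 62.5% of all genes tested and in 7 of the 8 members. The members at their lowest there were MYB, RUNX1, ETV6, IKZF1 and LYL1, and those at their highest were CBFB and ZBTB7A. Fold changes of the members, of the other named genes and of the gene lists are therefore also given without this library, on the same log2(FPKM + 1) scale. Over all genes tested the median log2 fold change without it was 0.0047, and over the members it was 0.01. The other 5 libraries were not alike either. At the opposite end of the component, sh-IUR1 r1 held the lowest value in 22.3% and the highest in 25.9% of all genes tested. Among the members it was lowest for 1 and highest for 3. The number of sequenced fragments behind the values is not known, so no counting error is given. Markers of the labelled line were present: all 11 erythroid and K562 markers were listed, with summed levels of 5152 to 6719 FPKM in sh-luc and 5046 to 5638 FPKM in sh-IUR1. Of the other blood markers, 3 of 6 T-cell genes were listed with summed levels of 3.51 to 5.08 FPKM, 2 of 5 B-cell genes with 0.98 to 1.36 FPKM, and LYZ alone of 6 monocyte and granulocyte genes with 107 to 119 FPKM. Of the 5 markers of adherent cells, VIM was at 835 to 875 FPKM, EPCAM at 37.9 to 47.6 FPKM and COL1A1 at 0.21 to 0.37 FPKM, and the other two were not listed.

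Because RUNX1 and MEIS1 had the largest differences of the members and MYB was the most abundant, the 250 bases before one start site of each are shown, read 5′ to 3′ on the gene's strand from RefSeq (GRCh38.p14). Capitals mark matches to 6 searched motifs, some of members and some of other factors. RUNX1 is from chr21:34888700-34888949 on the minus strand, before a start site that lies 160603 bases inside the 5′ end of the gene's RefSeq span. The RUNX1 window shown overlaps no GENCODE exon. MEIS1 is from chr2:66434875-66435124 on the plus strand and MYB from chr6:135181058-135181307 on the plus strand. For LYL1 only 26 bases are shown, chr19:13102871-13102896 on the minus strand, since it held the only GATA match among the members.
RUNX1: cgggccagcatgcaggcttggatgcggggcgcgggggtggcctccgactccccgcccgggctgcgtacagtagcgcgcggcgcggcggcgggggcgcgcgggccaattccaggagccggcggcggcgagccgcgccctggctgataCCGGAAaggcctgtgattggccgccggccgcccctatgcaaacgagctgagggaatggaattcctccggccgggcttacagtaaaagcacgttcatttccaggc
MEIS1: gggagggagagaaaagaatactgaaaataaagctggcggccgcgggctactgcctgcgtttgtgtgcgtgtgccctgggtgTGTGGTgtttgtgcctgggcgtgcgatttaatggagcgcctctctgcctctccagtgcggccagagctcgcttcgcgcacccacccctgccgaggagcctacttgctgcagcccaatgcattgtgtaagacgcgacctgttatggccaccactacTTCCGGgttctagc
MYB: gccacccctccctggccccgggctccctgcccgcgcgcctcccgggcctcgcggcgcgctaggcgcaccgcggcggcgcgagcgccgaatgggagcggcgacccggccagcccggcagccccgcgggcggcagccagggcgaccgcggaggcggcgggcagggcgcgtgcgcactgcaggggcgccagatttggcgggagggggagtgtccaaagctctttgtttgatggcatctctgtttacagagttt
LYL1: agccaggctcCTTATCaggcgcggcc

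The motifs were searched on both strands in 35116 promoters of this length. They were GATAAG for GATA factors (5.65% of all promoters), TGTGGT for RUNX (10.98%), CCGGAA for ETS (14.53%), CAACTG for MYB (8.996%), TGATGCAA for C/EBP-ATF dimers (0.7717%) and TGACCA for BCL11A (9.192%). In the RUNX1 window the capitals are an ETS match that begins 104 bases before the start. The MEIS1 window holds a RUNX match 169 bases and an ETS match 14 bases before the start, and the MYB window holds 0 matches. The LYL1 capitals are the GATA letters read from the opposite strand, 28 bases before the start. The LYL1 window overlaps a GENCODE exon of LYL1. Of the 10 members, 8 had entries in the promoter table, with 15 windows in all, and CBFB and FLI1 had none. Outside the sequences shown, IKZF1 had a RUNX match 144 bases before one of its starts. That start lies 5245 bases inside the 5′ end of the gene's RefSeq span, and its window overlaps a GENCODE exon of IKZF1. BCL11A had 5 matches before one start, 3 to MYB, 1 to RUNX and 1 to its own motif, the last 2 overlapping. This BCL11A start lies 25389 bases inside the 5′ end of the gene's RefSeq span. A match is a description of letters, and binding was not measured.

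The members spanned a 59.2-fold range of mean FPKM over the 6 libraries. MYB was highest at 101.8 ± 5.80 FPKM (SD, n = 6), above 92.9% of the genes tested. LYL1 followed at 85.6 ± 6.37 FPKM, CBFB at 31.5 ± 2.22 FPKM and IKZF1 at 26.4 ± 0.859 FPKM. RUNX1 was at 16.2 ± 4.25 FPKM and ZBTB7A at 8.995 ± 1.05 FPKM. ETV6 at 3.40 ± 0.244 FPKM and MEIS1 at 1.72 ± 0.219 FPKM were the least abundant, and MEIS1 was above only 18.1% of the genes tested. Neighbors in this order kept it in 6 of 6 libraries, with ranges that did not overlap, except RUNX1 and ZBTB7A. RUNX1 was above ZBTB7A in 5 of 6 libraries, and the order was turned in the unnumbered sh-luc library, at 8.86 FPKM for RUNX1 and 10.8 FPKM for ZBTB7A.

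**Figure D1:**
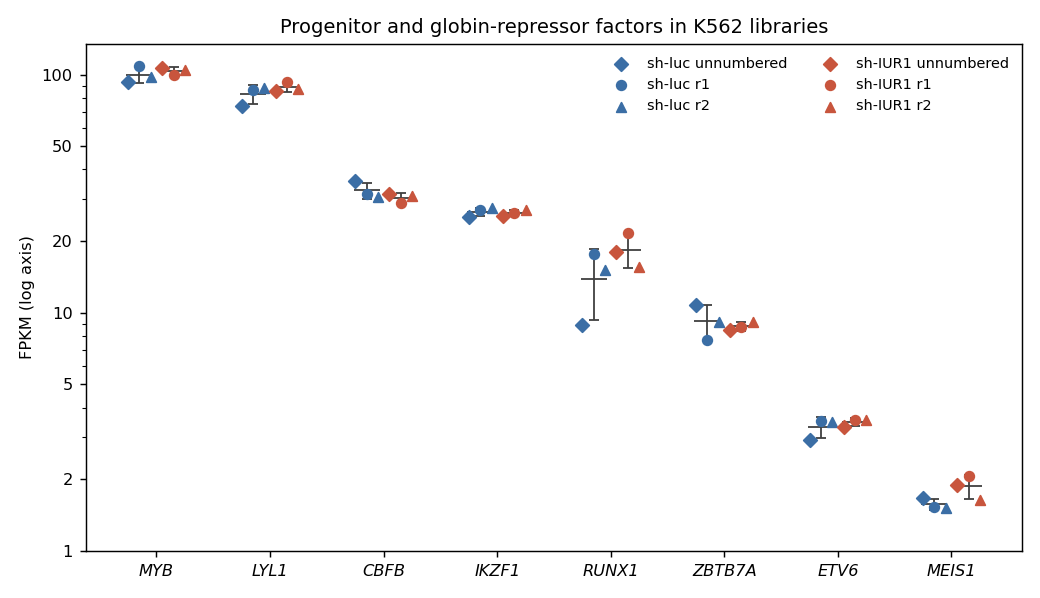
FPKM of the 8 measured members (log axis) in each of the 6 libraries, blue for sh-luc and red for sh-IUR1, with symbols for the unnumbered (diamond), r1 (circle) and r2 (triangle) libraries and black bars for the group mean ± SD (n = 3). Levels fall from MYB at 101.8 FPKM to MEIS1 at 1.72 FPKM, and the widest spread is that of RUNX1, where the unnumbered sh-luc library is at 8.86 FPKM.

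RUNX1 (gene identifier 861, chromosome 21 from 34787801 to 35049302 on GRCh38.p14) encodes the DNA-binding subunit of core binding factor. Listed in the order unnumbered, r1, r2 as throughout, its levels were 8.86, 17.73 and 15.18 FPKM in sh-luc and 18.08, 21.59 and 15.61 FPKM in sh-IUR1. The unnumbered sh-luc library was far below the other 5, and sh-luc r1 lay above sh-IUR1 r2, so the groups overlapped. The highest library was 2.44 times the lowest. The SD of log2(FPKM + 1) over the 6 libraries was 0.41, against a median of 0.10 over all genes tested, and only 58 genes (0.472%) had a larger one. In limma the difference of log2(FPKM + 1) was 0.42 (SE 0.21, 95% interval -0.04 to 0.88; unadjusted p = 0.0698, adjusted p = 0.930). The two-sided exact permutation test gave p = 0.2, where 3 libraries against 3 cannot go below 0.1. Without the unnumbered sh-luc library the log2 fold change was 0.15, with an adjusted p of 0.9997 from limma. It was 0.61 without sh-luc r1 (unadjusted p = 0.0136, adjusted p = 0.667 from limma) and 0.31 without sh-IUR1 r1. Without sh-luc r1, 854 genes of the whole table had an unadjusted p-value below 0.05 in limma, against 325 with all libraries.

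CBFB (gene identifier 865, chromosome 16 from 67029149 to 67101058) encodes the partner that stabilizes RUNX1 on DNA. Its levels were 35.61, 31.51 and 30.78 FPKM in sh-luc and 31.51, 28.87 and 30.98 FPKM in sh-IUR1. The unnumbered sh-luc library was the highest and sh-IUR1 r1 the lowest, opposite to their places for RUNX1, and the groups overlapped. A log2 fold change of -0.09 was found (95% interval -0.26 to 0.07, adjusted p = 0.930 from limma) and -0.03 without the unnumbered sh-luc library.

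The ratio of RUNX1 to CBFB FPKM within a library does not depend on the scaling between libraries. The sh-luc libraries had ratios of 0.249, 0.563 and 0.493, and the sh-IUR1 libraries of 0.574, 0.748 and 0.504. CBFB thus exceeded RUNX1 in all 6 libraries, by the widest margin in the unnumbered sh-luc library. The log2 ratio was higher by 0.55 in sh-IUR1, and the groups overlapped (two-sided exact permutation test, p = 0.2, adjusted p = 0.2 over the 2 ratios computed). Without the unnumbered sh-luc library the difference was 0.19 (exact permutation p = 0.4).

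**Figure D2:**
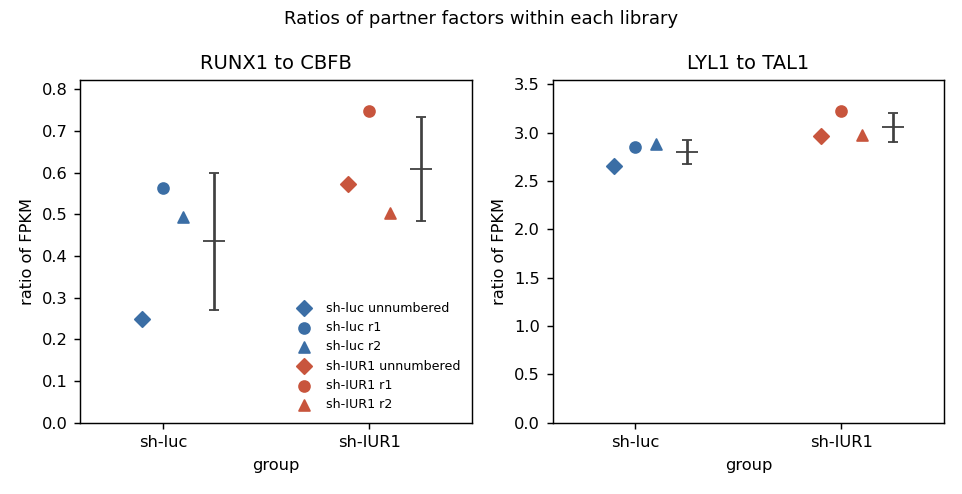
Ratio of FPKM within each library, RUNX1 to CBFB on the left and LYL1 to TAL1 on the right, for sh-luc (blue) and sh-IUR1 (red), with bars for the group mean ± SD (n = 3) and both axes from 0. The RUNX1 to CBFB ratio is lowest in the unnumbered sh-luc library at 0.249, and the LYL1 to TAL1 ratio of the sh-IUR1 libraries starts at 2.96, above the highest sh-luc value of 2.88.

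MYB (gene identifier 4602, chromosome 6 from 135181308 to 135219172) encodes the progenitor factor c-Myb. It was measured at 93.39, 108.58 and 98.00 FPKM in sh-luc and 106.33, 99.31 and 105.06 FPKM in sh-IUR1. The highest and the lowest library were both sh-luc, so the sh-IUR1 values lay inside the control range. Its log2 fold change was 0.05 (95% interval -0.10 to 0.20, adjusted p = 0.935 from limma), an interval of 0.934 to 1.15 as a fold of FPKM + 1, and it was 0.01 without the unnumbered sh-luc library. A list of 9 MYB target genes had 8 tested, 0 called, and 5 higher and 3 lower by sign, with a median log2 fold change of 0.03 that was -0.0012 with quantile normalization and -0.0094 without the unnumbered sh-luc library. MAT2A, a methionine adenosyltransferase and the most abundant of them, was at 220, 179 and 184 FPKM in sh-luc and 175, 155 and 193 FPKM in sh-IUR1. The log2 fold change of MAT2A was -0.15, and -0.061 without the unnumbered sh-luc library. CCNB1, the mitotic cyclin B1, had the smallest p-value of the list, with a log2 fold change of -0.25 (unadjusted p = 0.0419, adjusted p = 0.930 from limma), and -0.14 without the unnumbered sh-luc library. MYC, the proliferation factor, had a log2 fold change of 0.12, which was 0.015 without the unnumbered sh-luc library. That of KIT, the stem cell factor receptor, was 0.04, and it was -0.01 with quantile normalization and 0.11 without that library. Adjusted p-values from limma were 0.930 for MYC and 0.957 for KIT.

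LYL1 (gene identifier 4066, chromosome 19 from 13099033 to 13102858) is a relative of TAL1 that binds DNA with E proteins. Its levels were 73.94, 86.59 and 87.51 FPKM in sh-luc and 85.09, 93.33 and 87.08 FPKM in sh-IUR1. The unnumbered sh-luc library was the lowest, and the other sh-luc libraries lay among the sh-IUR1 libraries. Its log2 fold change was 0.10 (95% interval -0.07 to 0.27, adjusted p = 0.930 from limma), and 0.02 without the unnumbered sh-luc library. TAL1, the master regulator of blood stem and erythroid cells, was steadier, at 27.84 to 30.37 FPKM over the 6 libraries. The log2 fold change of TAL1 was -0.03, and -0.07 without the unnumbered sh-luc library.

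The LYL1 to TAL1 ratios were 2.66, 2.85 and 2.88 for sh-luc and 2.96, 3.22 and 2.98 in sh-IUR1. LYL1 was the more abundant in all 6 libraries, and each sh-IUR1 ratio was above each sh-luc ratio. The difference of the log2 ratios was 0.13, with an exact permutation p = 0.1, the smallest possible, and an adjusted p = 0.2 over the 2 ratios. Without the unnumbered sh-luc library it was 0.09 (exact permutation p = 0.2, the smallest that 2 libraries against 3 allow).

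MEIS1 (gene identifier 4211, chromosome 2 from 66435125 to 66573869), a cofactor of HOX and PBX proteins in leukemia, was at 1.67, 1.53 and 1.51 FPKM in sh-luc and 1.89, 2.07 and 1.64 FPKM in sh-IUR1. The groups overlapped only because sh-IUR1 r2 lay just below the unnumbered sh-luc library. The means were 1.57 ± 0.0872 and 1.87 ± 0.216 FPKM (SD, n = 3), a ratio of 1.19. The log2 fold change of FPKM + 1, a scale that understates the change of low genes, was 0.16 (95% interval -0.03 to 0.35, unadjusted p = 0.0988, adjusted p = 0.930 from limma). With a pseudocount of 0.1 FPKM it was 0.23, and without the unnumbered sh-luc library it was 0.18. Of the 5 members that were higher in sh-IUR1 by sign, MEIS1 alone had a larger difference without that library.

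Of 10 TALE and HOX partners of MEIS1, HOXA9, HOXA10, MEIS3 and PKNOX2 were not listed. The 6 tested held 0 calls, with 3 higher and 3 lower by sign and a median log2 fold change of 0.00091 that was -0.017 with median-ratio scaling and -0.025 with quantile normalization, and -0.040 without the unnumbered sh-luc library. PBX2, a DNA-binding partner and the most abundant, was at 64.9 to 72.6 FPKM with a log2 fold change of 0.01, which was -0.01 with median-ratio scaling and -0.039 without the unnumbered sh-luc library. PBX4 had the smallest p-value of the list, with a log2 fold change of 0.13 (adjusted p = 0.930 from limma) that was 0.054 without that library.

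ETV6 (gene identifier 2120, chromosome 12 from 11649674 to 11895377), an ETS repressor needed in adult stem cells and platelets, was at 2.93, 3.52 and 3.49 FPKM in sh-luc and 3.32, 3.55 and 3.56 FPKM in sh-IUR1. The unnumbered sh-luc library was the lowest, and the other 5 lay between 3.32 and 3.56 FPKM. The log2 fold change was 0.06 (95% interval -0.14 to 0.25, adjusted p = 0.942 from limma) and -0.01 without that library. FLI1 (gene identifier 2313), the ETS activator of megakaryocyte genes, and its relative ERG were not listed and were not analysed here. Of 17 megakaryocyte genes that RUNX1 and FLI1 are known to control, 11 were tested, 0 were called, and 8 were higher and 3 lower by sign, with a median log2 fold change of 0.02 that was -0.0032 with quantile normalization and -0.0084 without the unnumbered sh-luc library. GP1BB, a platelet glycoprotein and the most abundant of these genes, was at 93.4 to 107.0 FPKM with a log2 fold change of 0.01, which was -0.01 with median-ratio scaling and 0.054 without that library. PDLIM1, with the smallest p-value of the list, had a log2 fold change of 0.08 (adjusted p = 0.930 from limma) that was 0.041 without the unnumbered sh-luc library and 0.031 without sh-IUR1 r1.

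IKZF1 (gene identifier 10320, chromosome 7 from 50303455 to 50405101), the zinc finger protein Ikaros, was the steadiest member. It was at 25.31, 26.91 and 27.47 FPKM in sh-luc and 25.56, 26.14 and 26.97 FPKM in sh-IUR1. The highest library was 1.09 times the lowest, both were sh-luc, and 94.2% of the genes tested had a larger SD on the log2 scale. IKZF1 had a log2 fold change of -0.02 (95% interval -0.16 to 0.12, adjusted p = 0.968 from limma), and -0.05 without the unnumbered sh-luc library.

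ZBTB7A (gene identifier 51341, chromosome 19 from 4043303 to 4066899), which encodes the fetal globin repressor LRF, was at 10.82, 7.66 and 9.18 FPKM in sh-luc and 8.44, 8.74 and 9.13 FPKM in sh-IUR1. The sh-luc libraries held both the highest and the lowest value, and the sh-IUR1 values lay between them. The log2 fold change was -0.05 (95% interval -0.30 to 0.19, adjusted p = 0.954 from limma), and 0.06 without the unnumbered sh-luc library. BCL11A (gene identifier 53335), the other repressor of fetal globin, was not listed and was not analysed here. The lowest SD of a listed gene was 0.05 FPKM over the 6 libraries. The rule by which genes were listed is not stated, so no level is given here for a gene that is not listed.

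**Figure D3:**
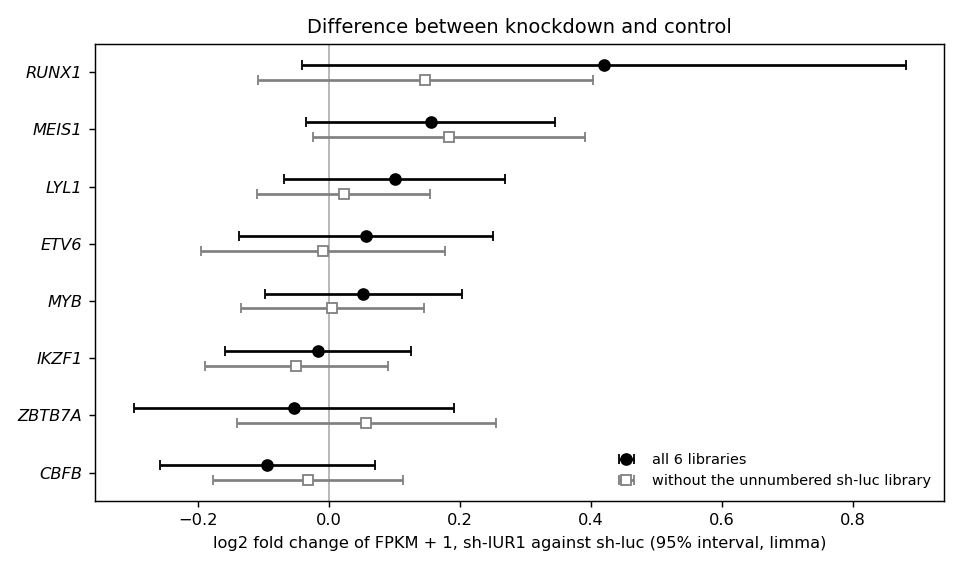
Log2 fold change of FPKM + 1 (sh-IUR1 against sh-luc) with its 95% interval from limma, for all 6 libraries (black circles) and without the unnumbered sh-luc library (open grey squares). Every interval crosses 0, RUNX1 moves from 0.42 to 0.15 without that library, and MEIS1 stays at 0.16 and 0.18.

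The globin genes that BCL11A and ZBTB7A repress in adult cells were abundant. HBG2 was at 3565, 2677 and 2969 FPKM in sh-luc and 2789, 2559 and 2930 FPKM in sh-IUR1, and HBG1 at 1600, 1166 and 1306 against 1178, 1089 and 1284 FPKM. Both were highest in the unnumbered sh-luc library, where ZBTB7A was also highest. HBG1 and HBG2 are near-identical copies, so the division of reads between them is uncertain. Their log2 fold changes were -0.19 and -0.15, and -0.06 and -0.03 without the unnumbered sh-luc library (adjusted p = 0.930 from limma for each with all libraries). HBE1, the embryonic epsilon-globin, was at 189, 174 and 173 FPKM in sh-luc and 163, 169 and 165 FPKM in sh-IUR1, each sh-IUR1 library below each sh-luc library. HBE1 had the smallest p-value of the globin list, and the groups did not overlap for 868 (7.07%) of all genes tested. The log2 fold change of HBE1 was -0.11 (adjusted p = 0.930 from limma) and -0.07 without the unnumbered sh-luc library. Of 10 globin genes 9 were tested and 0 called, with 1 higher and 8 lower by sign and a median log2 fold change of -0.07, or -0.03 without that library.

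All 13 NuRD subunits in the list were tested and 0 were called, with 6 higher and 7 lower by sign and a median log2 fold change of -0.0012 that was 0.0059 with quantile normalization and -0.026 without the unnumbered sh-luc library. MTA2, the most abundant subunit, was at 113 to 132 FPKM with a log2 fold change of 0.05 that was -0.016 without that library. HDAC1, a histone deacetylase and the subunit with the smallest p-value, was at 84.0, 77.3 and 79.6 FPKM in sh-luc and 74.8, 69.3 and 77.8 FPKM in sh-IUR1, a log2 fold change of -0.12 (adjusted p = 0.930 from limma) that was -0.085 without the unnumbered sh-luc library. Of 21 other regulators of fetal globin, 20 were tested and 0 called, with 13 higher and 7 lower by sign and a median log2 fold change of 0.04 that was -0.0011 without that library. KLF1, the erythroid activator of adult globin, was at 131.5, 105.7 and 118.5 FPKM in sh-luc and 106.9, 99.2 and 125.9 FPKM in sh-IUR1. SOX6, a partner of BCL11A, was at 1.73, 2.29 and 2.09 against 2.26, 2.59 and 2.27 FPKM. KLF1 was thus highest and SOX6 lowest in the unnumbered sh-luc library, with log2 fold changes of -0.10 and 0.15 (adjusted p = 0.930 from limma for each). Without that library they were -0.023 and 0.080.

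Of 16 partner factors of the stem cell and erythroid complexes, 15 were tested and 0 called, with 8 higher and 7 lower by sign and a median log2 fold change of 0.01 that was -0.015 with median-ratio scaling and -0.011 with quantile normalization, and -0.021 without the unnumbered sh-luc library. GATA1, the main erythroid GATA factor and the most abundant, was at 182 to 200.4 FPKM with a log2 fold change of -0.05 that was -0.040 without that library. LMO2, which bridges TAL1 or LYL1 to GATA1, was at 76.6, 60.9 and 60.0 FPKM in sh-luc and 58.1, 53.2 and 63.7 FPKM in sh-IUR1, a log2 fold change of -0.17 (adjusted p = 0.930 from limma) that was -0.05 without the unnumbered sh-luc library. Among paralogs of the members, 18 of 27 were tested and 0 called, with 15 higher and 3 lower by sign and a median log2 fold change of 0.05 that was 0.014 without the unnumbered sh-luc library. MYBL2, the cell-cycle relative of MYB, was at 82.8 to 96.0 FPKM with a log2 fold change of 0.05 that was -0.0067 without that library. TAL2, a low relative of LYL1 with the smallest p-value of the list, was at 1.43, 1.27 and 2.18 FPKM in sh-luc and 2.29, 3.03 and 1.60 FPKM in sh-IUR1, a log2 fold change of 0.32 (adjusted p = 0.930 from limma) that was 0.28 without that library.

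The order of the libraries for RUNX1 was nearly that of genes of the integrated stress response, the program of which the transcription factor ATF4 is the main effector. A list of these genes was included because a library of these data was already known to stand apart in it. The low point of the list in that library was therefore not an independent finding. Of 23 such genes 22 were tested and 0 called, and all 22 were higher in sh-IUR1 by sign, with a median log2 fold change of 0.32 that was 0.06 without the unnumbered sh-luc library. The sh-luc libraries had a mean log2(FPKM + 1) over these genes of 5.83, 6.79 and 6.64, and the sh-IUR1 libraries of 6.82, 6.98 and 6.53. Both RUNX1 and the list were lowest in the unnumbered sh-luc library and highest in sh-IUR1 r1, and only sh-luc r2 and sh-IUR1 r2 changed places. The first principal component of the whole table ordered the libraries as the stress list did, from -19.8 in the unnumbered sh-luc library through -3.75 (sh-IUR1 r2), 1.61 (sh-luc r2), 4.12 (sh-luc r1) and 4.79 (unnumbered sh-IUR1) to 13.02 (sh-IUR1 r1). The order is thus also that of the main axis of variation over all genes. DDIT4, an inhibitor of mTORC1 signaling and the most abundant gene of the list, was at 169, 599 and 492 FPKM in sh-luc and 551, 620 and 479 FPKM in sh-IUR1. SLC7A11, the cystine transporter, with the smallest p-value of the list, was at 7.02, 15.4 and 12.3 against 16.7, 15.5 and 13.8 FPKM. ATF4 itself was at 252, 295 and 289 against 286, 280 and 298 FPKM. Log2 fold changes were 0.57 for DDIT4, 0.44 for SLC7A11 and 0.05 for ATF4. Without the unnumbered sh-luc library they were 0.010, 0.145 and -0.022. The part of this program in the RUNX1 values was not tested.

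**Figure D4:**
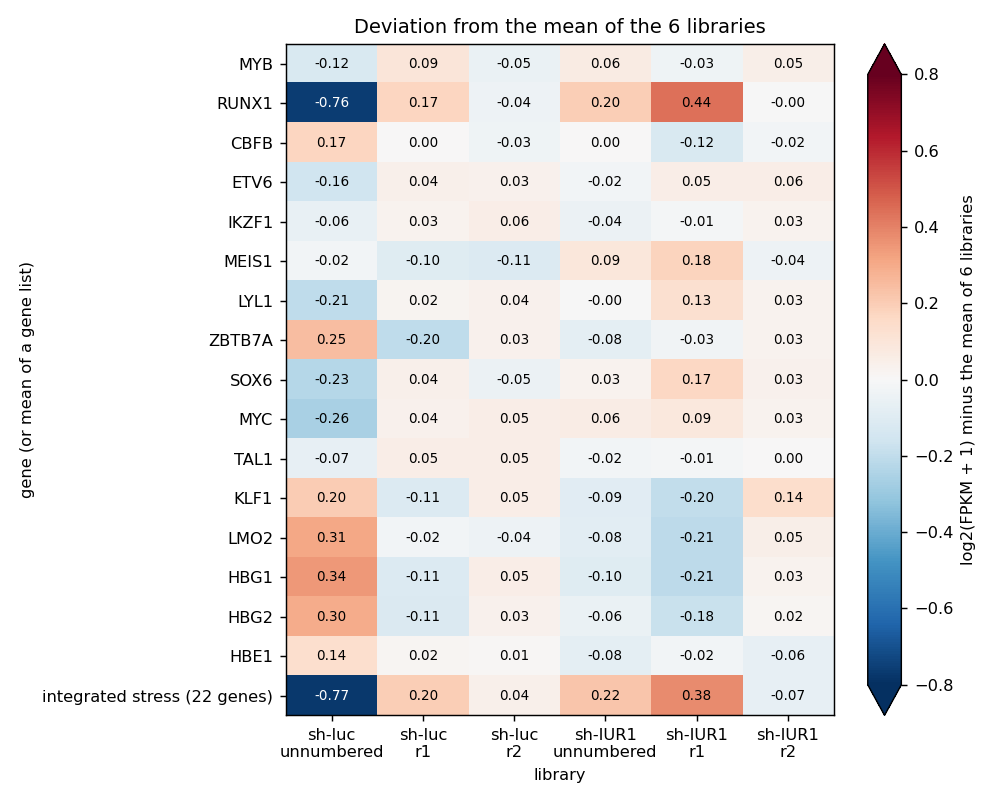
Deviation of log2(FPKM + 1) in each library from the mean of the 6 libraries, for the 8 measured members, 8 other genes and the mean of the 22 stress genes (red above, blue below the mean). In the unnumbered sh-luc library RUNX1 is at -0.76 and the stress genes at -0.77, while ZBTB7A is at 0.25, HBG1 at 0.34 and LMO2 at 0.31.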

How the data were processed

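RNA-seq of 3 sh-luc and 3 sh-IUR1 K562 libraries was analysed from the expression table. Reads had been trimmed, masked for poor or low-complexity sequence and mapped to hg38 by the authors, whose methods name RPKM and SAMtools 0.1.19. The aligner and annotation are not given in the sources used here. The deposited values are FPKM with 2 decimals. The authors also deposited a standardized score of the FPKM for each gene and library, a cluster number (1 to 9) and a membership fraction, none of which were used. Whole fragments were not recovered: in low values of single-exon genes, 37.1% to 50.0% were whole within 0.1 at the best depth, which differed between libraries, so depth is unknown and no count test was run.

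Symbols came from RefSeq GRCh38.p14 for 12363 of 12486 genes. limma 3.58.1 (R 4.3.3; lmFit, eBayes with a trend) was fitted to log2(FPKM + 1) for 12276 genes whose mean FPKM was 0.1 or more. The fit was tested on simulated data with independent noise in each library, which does not cover a library that stands apart. Ratios used two-sided exact permutation tests. Other steps used scipy 1.17.1, pandas 2.3.3, numpy 2.4.6 and matplotlib 3.10.9 in Python 3.11.15. The members and lists were chosen with earlier results of these data known. Named were the members, a set of related factors, globins and ATF4, and from each list the gene with the highest mean FPKM and that with the smallest p-value. Alternatives were a pseudocount of 0.1, no filter, a mean of at least 1 FPKM, median-ratio scaling, quantile normalization, no trend, a replicate block and leaving out each library.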

Additional observations from a re-analysis of the deposited data

How the results depend on the processing

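At an adjusted p-value of 0.05, limma called 0 genes higher and 0 lower under each alternative, and of 104 log2 fold changes of members, 100 kept their direction and 4 reversed. Member adjusted p-values were between 0.667 and 0.9997. At an unadjusted p-value of 0.05 there were 325 genes, 156 to 854 when a library was left out (156 without the unnumbered sh-IUR1 library, 712 without sh-IUR1 r2 and 854 without sh-luc r1), and 868 genes without overlap became 1460 to 3087. Members without overlap numbered 0 with all libraries and up to 3 of 8 when a library was left out. The 3 were found without sh-luc r1, where 2702 genes of the whole table did not overlap. Groups separate more readily when a library is left out, so this count says nothing particular about the members. Leaving out a library gave ranges of 0.15 to 0.61 for RUNX1, 0.0051 to 0.11 for MYB, 0.022 to 0.14 for LYL1, -0.13 to -0.032 for CBFB, 0.10 to 0.21 for MEIS1, -0.0095 to 0.091 for ETV6, -0.051 to 0.0063 for IKZF1 and -0.17 to 0.057 for ZBTB7A. MYB, LYL1 and CBFB were nearest 0 without the unnumbered sh-luc library, and MYB was highest without sh-luc r1. ETV6 and ZBTB7A reversed without the unnumbered sh-luc library, and IKZF1 without sh-luc r2 or the unnumbered sh-IUR1 library. Without sh-IUR1 r2, limma gave unadjusted p-values of 0.0484 for RUNX1 and 0.0441 for MEIS1 (adjusted p = 0.729 for each). The range for the log2 ratio of RUNX1 to CBFB was 0.19 to 0.78.

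With the replicate block, limma gave 533 genes at an unadjusted p-value of 0.05, including RUNX1 (unadjusted p = 0.0110, adjusted p = 0.947). Deviations from the group means correlated at 0.39 between the r1 libraries, -0.34 between the r2 libraries and 0.04 between those without a number. In groups this small the deviations of a group depend on each other, so these correlations cannot decide whether the numbers pair the libraries. No pairing is stated.

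Of 299 values of the other named genes, 13 reversed. Quantile normalization gave -0.0068 for KIT, and median-ratio scaling gave -0.011 for PBX2 and -0.015 for GP1BB. Without 1 library the ranges were -0.031 to 0.11 for KIT, -0.022 to 0.090 for ATF4, -0.016 to 0.094 for MTA2, -0.039 to 0.040 for PBX2, -0.0067 to 0.099 for MYBL2 and -0.042 to 0.057 for GP1BB. The cause was not tested. Of 117 list medians, 0 moved beyond the spread between replicates. That spread was computed with the unnumbered sh-luc library included, so this count cannot show that the medians hold without it. The integrated stress median went from 0.32 to 0.06 without that library. The medians of the MYB targets and of the megakaryocyte genes were among those that changed sign. Ratios of BCL11A to ZBTB7A and of FLI1 to KLF1 were planned and not run, because BCL11A and FLI1 are not listed.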
